A study of Arabidopsis thaliana with 12 samples.

Results

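Seedling roots were compared with seedling shoots in Arabidopsis thaliana, the small crucifer used as the standard model plant, on 6 of the 12 arrays of the series: the 3 arrays titled as DMSO roots and the 3 titled as DMSO shoots. The comparison covered all 16550 genes for which the array held a probe set paired with exactly 1 gene. All seedlings, in every group, carried CLE2, a gene for a small secreted peptide, under an estradiol-inducible system, and no plants without it were measured. They grew upright on a diluted mineral medium at 22 °C in continuous light. At 7 days their roots were exposed to DMSO, or, on the other 6 arrays, to β-estradiol, and roots and shoots were then collected apart. The exposure of 24 h is stated for the estradiol seedlings only. Whether the 3 replicates of a group came from separate sowings, and how many plants were pooled in each, is not given in the sources used here, so the p-values below rest on the variation among these arrays, and that variation may be only technical.

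The shoot of a young seedling is mostly cotyledons and the first leaves. Its mesophyll cells carry chloroplasts whose photosynthetic complexes are assembled from proteins encoded partly in the nucleus and partly in the chloroplast genome, and its epidermis makes stomata and is sealed by a cuticle of cutin and wax. The root takes up water and minerals through epidermal hairs, builds walls rich in hydroxyproline-rich glycoproteins, pectin and phenolic polymers, forms lateral roots, and in the cabbage family stores β-glucosidases and lectins in endoplasmic-reticulum bodies that act in defence.

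Values are log2 signals, 1 per gene and array, and every difference below is the root mean minus the shoot mean, so that a positive value is higher in roots. Errors of differences are limma standard errors with 3 arrays in each group. A gene is called higher or lower in roots when its limma p-value, adjusted by Benjamini-Hochberg over all 16550 genes, is under 0.05. Between any pair of DMSO root arrays the correlation over genes was at least 0.991, and between any pair of DMSO shoot arrays at least 0.986. Root and shoot arrays correlated at 0.863 to 0.866. The labels were checked with 15 marker genes, the members of a list of 94 that were measured. All 7 mesophyll and photosynthesis markers and all 3 stomatal markers were lower in roots, with medians of -3.27 and -4.22. All 3 root hair markers were higher in roots, with a median of 4.72. The leaf primordium gene YAB3 was lower in roots, and the shoot apex gene CLV3 was low on all 6 arrays and not called (-0.34 ± 0.17, adjusted p = 0.117). None of the listed markers of endodermis, root tip, or stele, xylem and phloem was measured. In whole organs, fewer cells of a type and less RNA per cell cannot be told apart.

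DMSO root replicates 3 and 2 held more signal of the most shoot-sided genes than replicate 1. Over the 100 genes with the largest shoot excess on the estradiol arrays, the median log2 signal was 3.75, 4.18 and 4.42 on DMSO root replicates 1, 2 and 3, against 3.79 to 3.98 on the estradiol root arrays and 8.74 to 8.96 on the DMSO shoot arrays. Of these genes, 56 were highest on replicate 3, 32 on replicate 2 and 12 on replicate 1. Over all genes, 30.2% were highest on replicate 3. The split was more even over the 1666 genes called at least 2-fold lower in roots without overlap. Of those, 510, 565 and 591 were highest on replicates 1, 2 and 3. On a linear scale the excess of replicate 3 over the other root arrays in the 100 genes had a median of 0.644% of the shoot level. Its quartiles were -0.187% and 1.47%. The list counts that moved by over 1.5 times without replicate 3, and the differences of the genes that moved most, are given with and without it. Other counts moved by less.

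The organ programmes differed in a large share of the measured genes. In roots 4408 genes were higher, which is 26.6% of those tested, and 4277 were lower, which is 25.8%. Of these, 1936 (11.7%) were at least 2-fold higher and 1674 (10.1%) at least 2-fold lower. Family counts below are to be read beside these shares. The far end was fuller on the root side, with 243 genes at least 16-fold higher in roots against 75 at least 16-fold lower. At 2-fold the order was reversed among genes above the median level (1116 higher, 1167 lower). It was also reversed over all probe sets (3786 higher, 4725 lower). The 16-fold counts were not made for these sets. The median difference over all genes was -0.09. It depended on the level: with the genes ranked by mean signal and cut into 5 equal classes, it was -0.26 in the dimmest class and 0.12 in the brightest. The 3 root and the 3 shoot values did not overlap for 59.8% of genes. Without DMSO root replicate 3, 7839 genes were called (4066 higher, 3773 lower), 7696 of them also called with it.

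**Figure D1:**
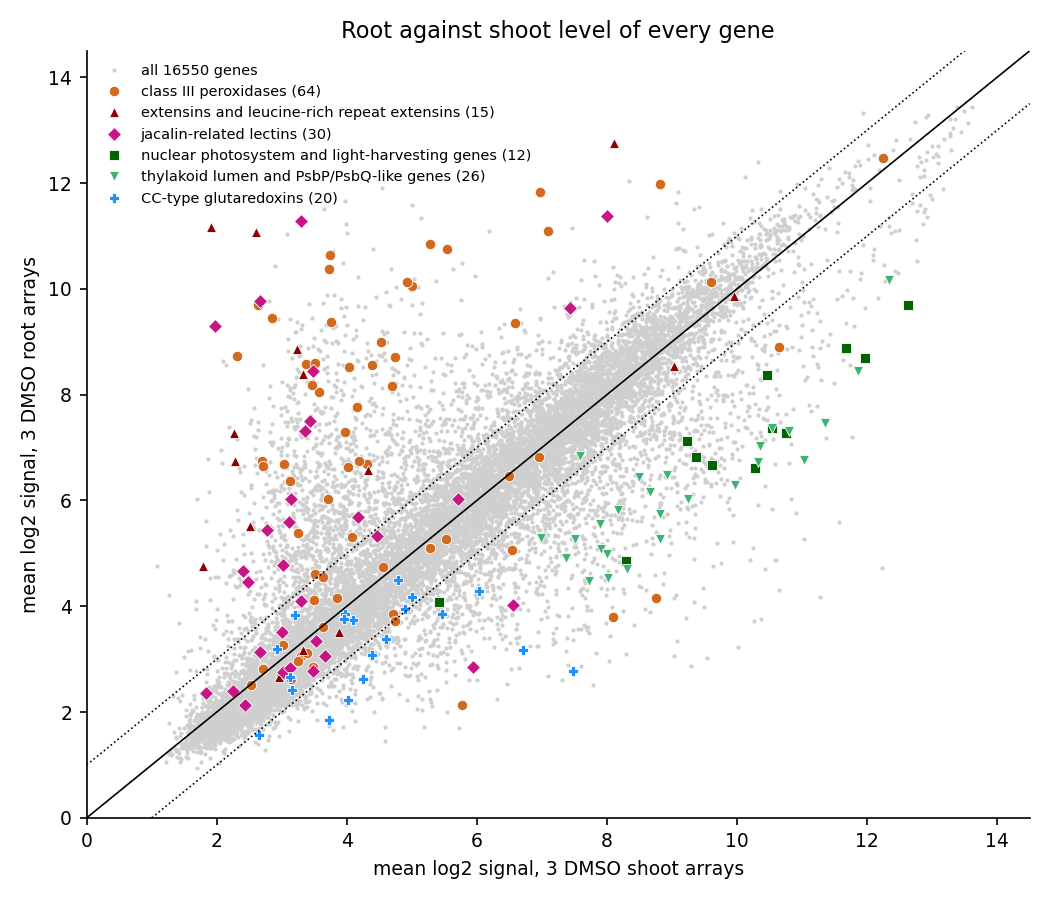
Mean log2 signal of every gene on the 3 DMSO root arrays (vertical axis) against the 3 DMSO shoot arrays (horizontal axis), 1 grey point per gene, with 6 gene groups in colour and the number of genes in each in brackets. The solid line marks equal signal and the dotted lines a 2-fold difference. Extensins and peroxidases lie mostly above the upper dotted line, and photosystem and thylakoid genes mostly below the lower one. Of the jacalin-related lectins 15 of 30 were called at least 2-fold higher, and of the glutaredoxins 10 of 20 at least 2-fold lower.

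The largest root excesses belonged to wall, lectin, glucosidase and lipid-related genes. AT3G28550, an extensin, one of the hydroxyproline-rich glycoproteins that form a network in the wall, read 11.08, 11.31 and 11.14 on the root arrays and 2.40, 1.83 and 1.50 on the shoot arrays. The difference was 9.26 ± 0.19 (adjusted p = 7.91e-11). Its size depended on the shoot values near the floor: with 16 added to every linear signal it was 6.87. A second extensin, AT3G54580, read 10.87, 11.19 and 11.17 on the root arrays and 2.73, 2.91 and 2.18 on the shoot arrays (8.47 ± 0.23). Both were high in every root array and near the bottom of the scale in every shoot array. AT4G38080, of a further hydroxyproline-rich glycoprotein family, differed by 7.86 ± 0.13. The subtilisin-like protease gene SBT4.12 read 10.42, 10.34 and 10.51 on the root arrays and 2.49, 2.93 and 3.28 on the shoot arrays (7.52 ± 0.18). AT2G16005, which encodes a protein with a lipid-recognition domain of the MD-2 type, differed by 7.70 ± 0.17, the dehydrogenase-like gene AT1G64590 by 7.37 ± 0.12, and AT3G23470, of a cyclopropane fatty acid synthase family, by 7.23 ± 0.14. AT5G54370, annotated by similarity to late embryogenesis abundant proteins, differed by 6.92 ± 0.10. The rest of the 15 largest root excesses were 3 lectin, 2 β-glucosidase, 1 peroxidase and 1 lipid transfer protein gene, described with their families below. For all 15, the difference was within 0.1 of its value when DMSO root replicate 3 was left out.

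The largest shoot excesses belonged to secreted, surface and lipid genes and to a stomatal regulator. AT3G16660 and its relative AT3G16670, secreted proteins related to the pollen allergen Ole e 1, led the list. AT3G16660 read 3.71, 3.79 and 6.68 on the root arrays and 12.13, 12.25 and 12.31 on the shoot arrays. The root values of 2 replicates lay close together and the third, replicate 3, was far higher, while the groups did not overlap. Its difference was -7.51 ± 0.60, and -8.48 without replicate 3. AT3G16670 read 3.77, 3.04 and 5.69 on the root arrays and 11.26, 11.16 and 11.41 on the shoot arrays, with a difference of -7.11 ± 0.49, and -7.88 without replicate 3. SPCH (SPEECHLESS), the basic helix-loop-helix factor that starts the stomatal lineage, read 2.89, 2.46 and 3.28 on the root arrays and 9.37, 9.19 and 9.33 on the shoot arrays, a difference of -6.42 ± 0.25 (adjusted p = 2.11e-09). Its root values were all near the floor of the array. AT5G16030 and AT1G67865 differed by -5.96 ± 0.16 and -5.75 ± 0.28, the latter by -6.07 without replicate 3. AT3G28220, with a TRAF-like domain, differed by -5.74 ± 0.20, and AT4G29030 by -5.73 ± 0.26.

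Not every uneven root value was highest on replicate 3. Among the genes at least 2-fold lower in roots with no overlap, 11 ranged over at least 1.5 log2 units across the 3 DMSO root arrays. Of these, 4 were highest on replicate 3 and 7 on replicate 2. Among those 7, AT4G22485, AT4G22490, AT4G22513 and AT4G22520 are near neighbours in the lipid transfer protein family and may not be separate cases. AT4G22513 passed the limit through a low replicate 3 (2.29, 2.43 and 0.347). AT5G38930 was close on replicates 2 and 3 (4.81 and 4.73). The lipid transfer protein gene AT4G22485 had the widest range, with root values of 3.26, 7.63 and 5.87 and shoot values of 11.61, 11.42 and 11.67. Its difference of -5.98 ± 1.07 had the largest error among the genes at the head of the shoot list. The cold-induced gene COR15A, picked after its values were seen, and the thionin gene THI2.2 showed the same order, with root values of 5.08, 7.68 and 6.41 and of 5.04, 7.18 and 5.65.

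**Figure D2:**
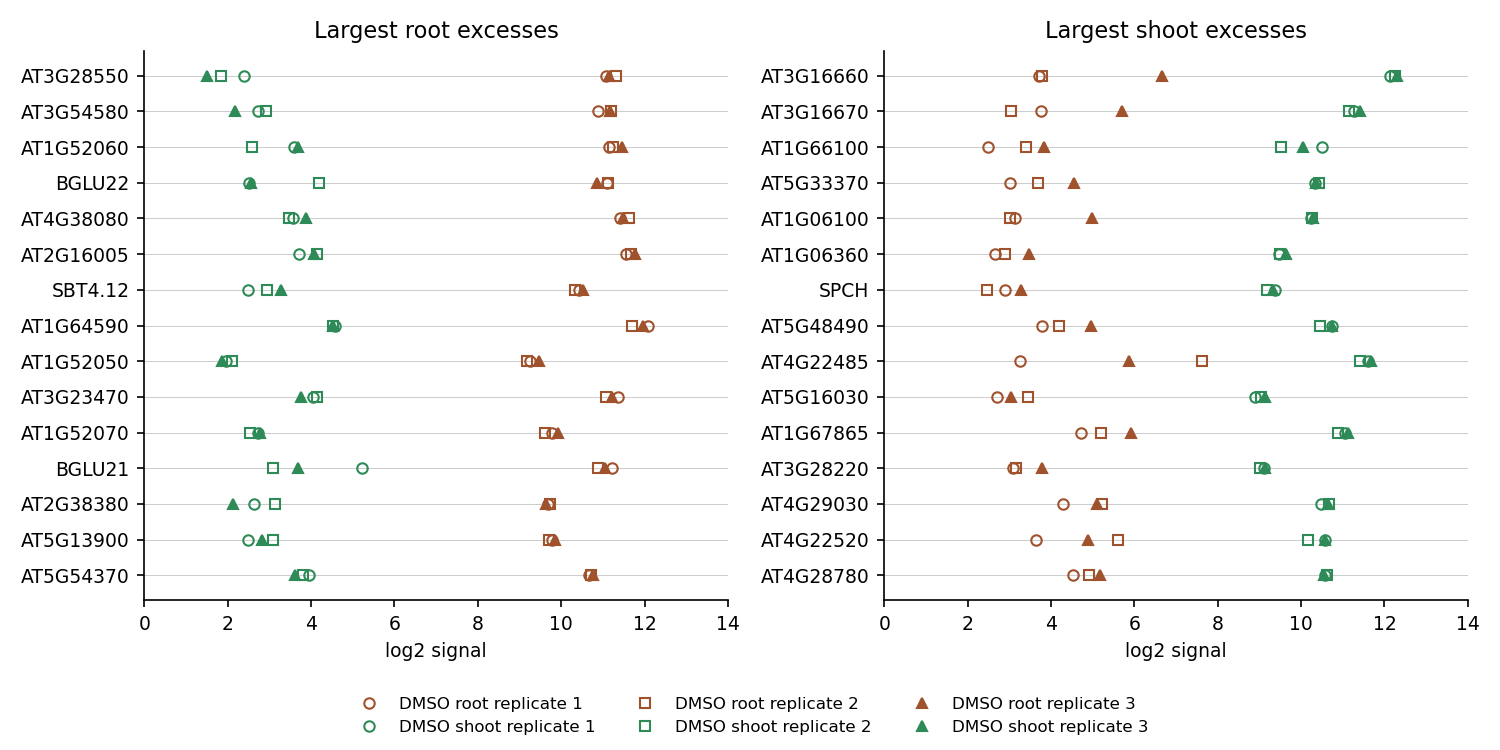
Log2 signal (horizontal axis) of the 15 genes with the largest root excess (left) and the 15 with the largest shoot excess (right) on each DMSO array, roots in brown and shoots in green, with replicates 1, 2 and 3 as circles, squares and filled triangles. Roots and shoots do not overlap for any of the 30 genes. Root values are uneven for AT3G16660, where replicate 3 reads 6.68, and AT4G22485, where replicate 2 reads 7.63.

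Nuclear genes for photosynthesis were lower in roots in nearly every case. All 12 measured photosystem and light-harvesting genes were called lower, with differences of -3.67 to -1.34 and a median of -2.95. LHCB4.2, a minor antenna protein of photosystem II, read 6.40, 6.68 and 6.76 on the root arrays and 10.33, 10.24 and 10.27 on the shoot arrays (-3.67 ± 0.13). PSAN, a lumenal subunit of photosystem I, read 7.17, 7.31 and 7.36 on the root arrays and 10.72, 10.71 and 10.82 on the shoot arrays (-3.47 ± 0.12). PSBW, a small subunit of photosystem II, differed by -2.94 ± 0.17 and still read 9.38, 10.09 and 9.59 in roots. The smallest difference in the group was that of LHCB4.3 (-1.34), a further antenna gene of the same family, named after its value was seen. The root signal of these genes was thus far below the shoot signal and, for several, well above the floor of the array.

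The 26 genes for thylakoid lumen proteins, PsbP- and PsbQ-like proteins, assembly factors and nuclear-encoded subunits of the chloroplast NDH complex were also all lower, with a median of -3.11, and 25 of them at least 2-fold. AT1G21500, of unknown function, led with -4.26 ± 0.19. NdhL, a membrane subunit of the NDH complex, which returns electrons to the plastoquinone pool, read 7.07, 7.60 and 7.70 on the root arrays and 11.32, 11.38 and 11.38 on the shoot arrays (-3.90 ± 0.17). The weakest was PGRL1B (-0.75), a factor of cyclic electron flow, chosen after its value was seen.

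The 7 genes of carbon fixation and photorespiration were all lower (median -2.94). SBPASE and PRK, enzymes that regenerate the acceptor of the Calvin cycle, read 7.99, 8.33 and 8.33 and 6.33, 7.15 and 6.81 in roots against 11.45, 11.56 and 11.47 and 9.90, 10.02 and 10.17 in shoots, differences of -3.28 ± 0.14 and -3.27 ± 0.19. RCA, which reactivates rubisco, differed by -2.32 ± 0.11. Of the 12 genes of chlorophyll and carotenoid metabolism, 9 were lower and 1 higher, with a median of -2.02. PORB, which makes chlorophyllide in the light, differed by -3.38 ± 0.13, and AT1G74470, the reductase that makes the phytyl tail of chlorophyll, by -3.02 ± 0.089. The single gene higher in roots was hemb2, a second copy of an early tetrapyrrole enzyme (1.47 ± 0.19). The glutamyl-tRNA reductase genes HEMA2 and HEMA3, which feed haem and chlorophyll alike and were picked after their values were seen, were not called, at 0.29 ± 0.16 (adjusted p = 0.158) and 0.25 ± 0.14 (adjusted p = 0.162). None of these 4 groups had a different count of calls without DMSO root replicate 3.

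The chloroplast's own genes were also on the shoot side, with smaller differences than the nuclear photosynthesis genes, though the gap between both sets was not tested. Of 63 measured chloroplast-encoded genes, 56 were lower in roots and none higher, with a median of -0.97. The groups within the genome were unequal. The 29 photosystem, cytochrome and rubisco genes had a median of -0.52, with 23 lower, 10 of them at least 2-fold. The 4 ATP synthase genes had a median of -0.53, with 3 lower and none at 2-fold. All 10 genes of the NDH complex were lower, 9 of them at least 2-fold, with a median of -1.52. All 20 genes for ribosomal proteins, RNA polymerase and other expression factors were lower as well (median -1.25). The median root signal was 12.50 for the photosystem, cytochrome and rubisco genes and 12.47 for the ATP synthase genes. It was 11.35 for the NDH genes and 11.08 for the expression genes. Over all 63 genes it was 11.66 in roots and 12.81 in shoots, against 7.20 and 10.37 for nuclear photosystem and light-harvesting genes. Whether compression of bright signals added to the unequal or smaller differences was not tested.

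Among single chloroplast genes, psbA, which encodes the D1 protein of photosystem II, read 13.44, 13.49 and 13.38 on the root arrays and 13.38, 13.37 and 13.40 on the shoot arrays. It was not called (0.06 ± 0.070, adjusted p = 0.521), and its values in all 6 arrays stood at the upper end of the scale. The rubisco large subunit gene rbcL read 12.52, 12.76 and 12.61 on the root arrays and 13.33, 13.26 and 13.26 on the shoot arrays, a difference of -0.66 ± 0.086. Both were chosen after their values were seen. The widest differences were those of psbM, a small photosystem II subunit (-2.64 ± 0.17), and ccsA, a cytochrome c maturation factor (-2.34 ± 0.12). Among the NDH genes, ndhF read 10.14, 10.63 and 10.13 on the root arrays and 12.40, 12.56 and 12.48 on the shoot arrays (-2.18 ± 0.13) and ndhG differed by -2.12 ± 0.15. The ATP synthase genes atpI and atpA differed by -0.90 ± 0.10 and -0.59 ± 0.078. The ribosomal protein gene rps16 differed by -2.25 ± 0.12 and the polymerase gene rpoB by -1.95 ± 0.10.

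Mitochondrial genes went the other way, by a small and even amount. Of 17 measured mitochondrially encoded genes, 16 were higher in roots and none lower, with differences of 0.18 to 0.65 and a median of 0.45. The cytochrome c maturation gene ccb382 read 10.06, 10.04 and 9.82 on the root arrays and 9.34, 9.31 and 9.32 on the shoot arrays (0.65 ± 0.091), and the transporter gene orfX 11.12, 11.12 and 11.12 on the root arrays and 10.49, 10.49 and 10.55 on the shoot arrays (0.61 ± 0.070). No member reached 2-fold. Genes for cytosolic ribosomal proteins served as a group that every growing cell uses: of 141, 12 were higher (8.51%) and 9 lower (6.38%), against 26.6% and 25.8% of all genes, the median was 0.04, and none reached 2-fold.

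**Figure D3:**
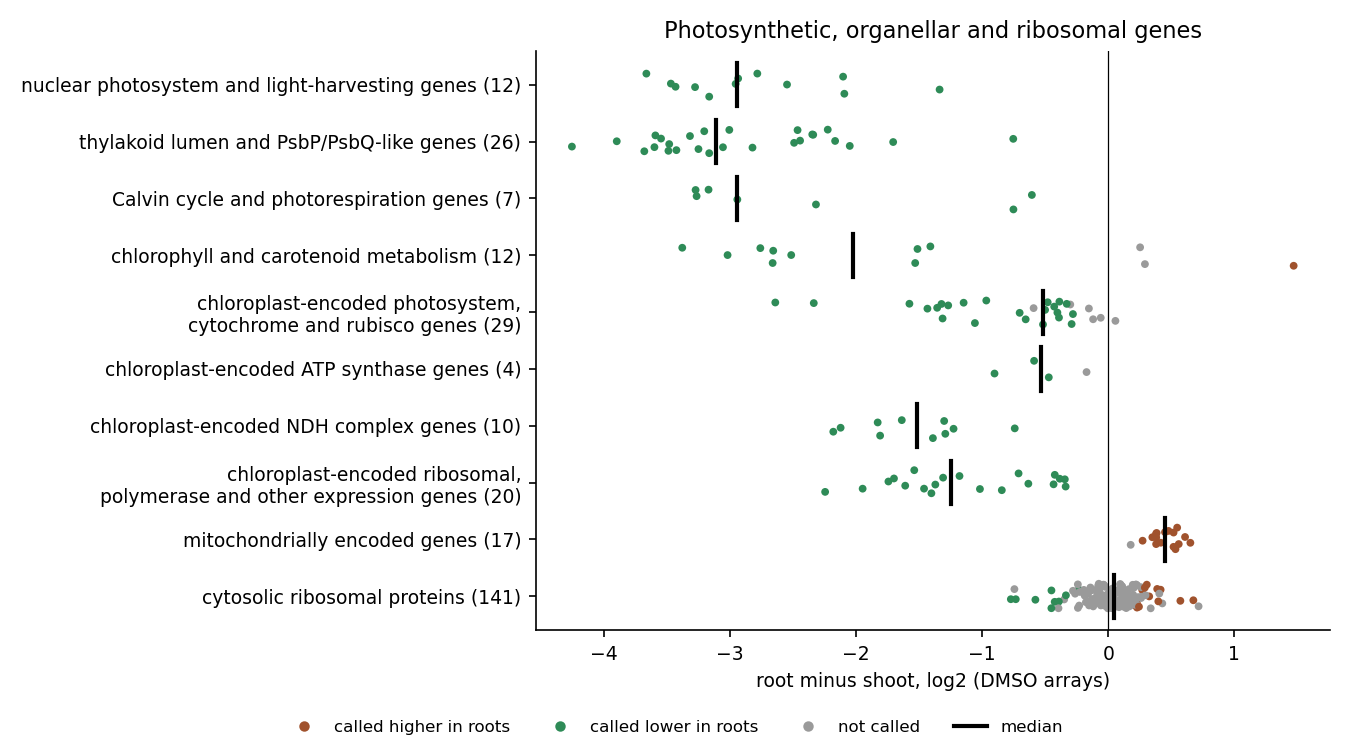
Root minus shoot difference in log2 signal (horizontal axis) of each gene in 10 groups for photosynthesis, organelles and ribosomes, with the number of genes in brackets, brown for genes called higher in roots, green for lower and grey for not called, and a black bar at the median. The nuclear photosystem, thylakoid and Calvin cycle groups have medians of -2.95, -3.11 and -2.94, the chlorophyll and carotenoid group has -2.02, and chloroplast-encoded groups lie between -0.52 and -1.52, mitochondrial genes at 0.45 and ribosomal protein genes at 0.04.

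Among wall genes, structural glycoproteins and phenol-oxidising enzymes were on the root side, and expansins and pectin methylesterases had members on both sides. Of 15 extensins and leucine-rich repeat extensins, 10 were higher in roots, all at least 2-fold, and 1 lower, with a median of 3.02. The leucine-rich repeat extensin AT4G18670 was the lower one (-0.49 ± 0.081). The lead members are described above.

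Class III peroxidases, secreted haem enzymes that cross-link wall phenolics and form lignin and suberin, were mostly on the root side. Of 64, 40 were higher in roots, 36 of them at least 2-fold, and 8 lower, with a median of 2.35. AT2G38380 read 9.68, 9.74 and 9.64 on the root arrays and 2.64, 3.15 and 2.14 on the shoot arrays (7.05 ± 0.25, and 5.23 with 16 added to the linear signals). AT3G01190 read 10.51, 10.78 and 10.62 on the root arrays and 2.74, 3.87 and 4.59 on the shoot arrays (6.90 ± 0.39). The root hair peroxidase AT4G26010 read 8.41, 8.64 and 8.67 on the root arrays and 3.06, 3.43 and 3.64 on the shoot arrays (5.19 ± 0.20). The family also held marked shoot genes: AT5G58390 read 3.51, 4.62 and 4.33 on the root arrays and 8.97, 8.46 and 8.81 on the shoot arrays (-4.59 ± 0.32), and AT3G17070 differed by -4.31 ± 0.14. Dirigent proteins, which steer the coupling of phenolic radicals, followed with 10 of 18 higher, all at least 2-fold, 6 lower and a median of 1.64. AT3G55230 differed by 5.13 ± 0.22 and AT4G11190 by 4.49 ± 0.19. On the shoot side AT1G22900 differed by -1.43 ± 0.18 and AT1G65870 by -1.21 ± 0.28.

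Expansins, proteins that loosen walls during growth, were divided: of 23, 8 were higher (34.8%) and 5 lower (21.7%), with a median of -0.20. Over all genes these shares were 26.6% and 25.8%. Without DMSO root replicate 3, 8 higher and 3 lower were called. EXPA18 and EXPA7, the expansins of root hairs, read 8.41, 8.29 and 8.51 and 7.05, 7.43 and 7.29 in roots against 4.62, 2.98 and 3.46 and 4.49, 4.60 and 4.82 in shoots (4.72 ± 0.34 and 2.62 ± 0.23). EXPA8 read 5.97, 6.41 and 5.99 on the root arrays and 8.97, 9.45 and 9.52 on the shoot arrays (-3.19 ± 0.18), and EXPA16 differed by -2.56 ± 0.16. The family thus had marked members on both sides. Xyloglucan endotransglucosylases, which cut and rejoin hemicellulose, had 4 higher and 3 lower of 10. XTH21 read 7.53, 7.33 and 7.35 on the root arrays and 3.43, 2.74 and 4.36 on the shoot arrays (3.89 ± 0.33), XTH19 differed by 2.05 ± 0.21, and EXGT-A3 and XTH16 by -1.05 ± 0.16 and -0.98 ± 0.20.

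Of 19 GH9 endoglucanases, which act on cellulose, 8 were higher and 5 lower (median 0.18; 7 higher and 3 lower without DMSO root replicate 3). GH9C1 read 7.83, 7.79 and 7.76 on the root arrays and 3.14, 2.78 and 2.70 on the shoot arrays (4.92 ± 0.14), GH9C3 differed by 2.41 ± 0.25, and GH9B18 by -1.21 ± 0.15. GH9B10 was called lower (-0.86 ± 0.31, adjusted p = 0.0372), though its groups overlap and the call was lost without DMSO root replicate 3 (adjusted p = 0.0632) and without any of 3 other single arrays. Genes related to TRICHOME BIREFRINGENCE, which add acetyl groups to wall polysaccharides, leaned to the root, with 15 higher and 6 lower of 23 and a median of 0.75. TBL36 read 10.16, 10.17 and 10.30 on the root arrays and 7.05, 6.98 and 7.27 on the shoot arrays (3.11 ± 0.12), TBL30 differed by 2.68 ± 0.23, and TBL26 and TBL45 by -2.34 ± 0.17 and -1.94 ± 0.14. Pectin methylesterases, which set the stiffness of pectin, had 12 higher (24.5%) and 14 lower (28.6%) of 49, near the 26.6% and 25.8% of all genes, and 9 of the higher and 2 of the lower genes reached 2-fold. AT5G51500 and AT5G04970 differed by 4.29 ± 0.23 and 4.28 ± 0.25, AT1G23200 by -1.37 ± 0.18 and PME61 by -1.12 ± 0.15.

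**Figure D4:**
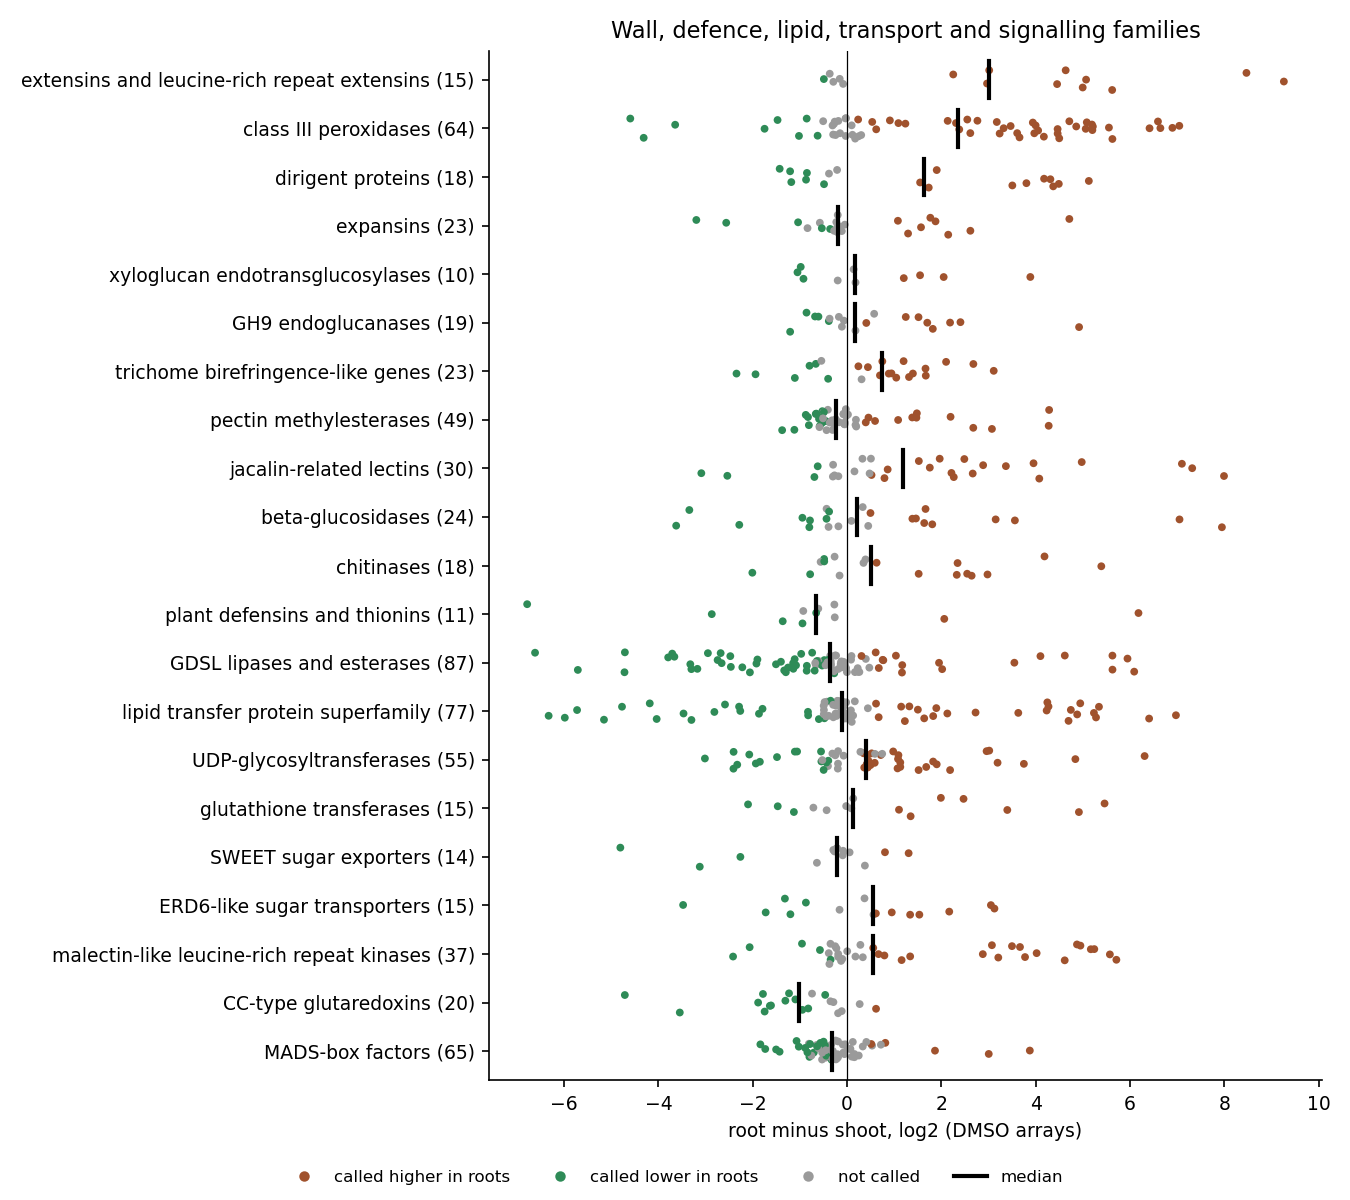
Root minus shoot difference in log2 signal (horizontal axis) of each gene in 21 families of wall, defence, lipid, transport and signalling genes, drawn as in the plot of organelle groups: brown for genes called higher in roots, green for lower, grey for not called, and a black bar at the median. The medians run from 3.02 for extensins and 2.35 for peroxidases to -1.02 for CC-type glutaredoxins, and lipid families reach far in both directions.

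Among the β-glucosidases, BGLU21 and BGLU22, which encode enzymes of the endoplasmic-reticulum bodies, were higher in roots. BGLU22 read 11.09, 11.13 and 10.86 on the root arrays and 2.50, 4.19 and 2.55 on the shoot arrays (7.95 ± 0.35, and 6.38 with 16 added to the linear signals), and BGLU21 11.21, 10.88 and 11.05 on the root arrays and 5.23, 3.08 and 3.68 on the shoot arrays (7.05 ± 0.43). The genes are close relatives, lie next to each other and may share signal on the array, so their levels are uncertain as separate values. NAI1, the factor needed to form the bodies, picked after its values were seen, read 7.29, 7.33 and 7.41 on the root arrays and 4.76, 4.34 and 4.51 on the shoot arrays (2.81 ± 0.18). The whole β-glucosidase family was divided, with 10 of 24 higher and 8 lower. On the shoot side were BGLU40, which read 5.68, 5.51 and 5.59 on the root arrays and 8.99, 9.35 and 9.31 on the shoot arrays (-3.62 ± 0.14), and BGLU33 (-3.34 ± 0.13).

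Jacalin-related lectins, sugar-binding proteins of which several bind the β-glucosidase complexes of these bodies, were higher in roots in 18 of 30 cases and lower in 4, with a median of 1.19. AT1G52060 read 11.16, 11.24 and 11.46 on the root arrays and 3.59, 2.59 and 3.69 on the shoot arrays (7.99 ± 0.30). AT1G52050 read 9.25, 9.18 and 9.47 on the root arrays and 1.97, 2.10 and 1.86 on the shoot arrays (7.32 ± 0.18) and AT1G52070 differed by 7.10 ± 0.12. These 3 are neighbours and close relatives, with the same caution on shared signal. On the shoot side were AT1G52100 (-3.09 ± 0.23) and AT1G52000 (-2.54 ± 0.14). JAL34, JAL31, JAL33 and JAL22, picked after their values were seen, differed by 3.37, 3.96, 2.89 and 2.22, and JAL23 by -0.69.

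Other defence families were mixed. Of 18 chitinases, 9 were higher and 4 lower (9 higher and 2 lower without DMSO root replicate 3). AT2G43610 read 9.87, 9.94 and 9.71 on the root arrays and 4.79, 4.29 and 4.26 on the shoot arrays (5.39 ± 0.21), AT1G56680 differed by 4.19 ± 0.11, and AT4G19820 by -2.01 ± 0.19. AT2G43620 was called lower (-0.78 ± 0.28, adjusted p = 0.0344), which was lost without DMSO root replicate 3 (adjusted p = 0.0686) and without any of 3 other single arrays. Small antimicrobial peptides went both ways: the defensin gene PDF2.5 read 9.78, 10.05 and 9.83 on the root arrays and 4.01, 3.55 and 3.55 on the shoot arrays (6.18 ± 0.17) and PDF2.1 differed by 2.06 ± 0.27, while the thionin gene AT1G66100 read 2.49, 3.40 and 3.83 on the root arrays and 10.50, 9.52 and 10.04 on the shoot arrays (-6.78 ± 0.32, and -7.08 without DMSO root replicate 3). THI2.2 differed by -2.87 ± 0.53. Of these 11 defensin and thionin genes, 2 were higher and 5 lower.

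Among 19 major latex protein-like genes, 7 were higher and 2 lower. AT1G23120 read 7.25, 6.90 and 7.25 on the root arrays and 4.02, 3.84 and 3.03 on the shoot arrays (3.51 ± 0.21), whereas AT1G23130 read 3.36, 4.36 and 4.31 on the root arrays and 7.87, 7.51 and 7.70 on the shoot arrays (-3.69 ± 0.28). AT1G70860 differed by 3.28 ± 0.23 and AT3G26450 by -0.97 ± 0.16. Of 80 genes for low-molecular-weight cysteine-rich and self-incompatibility-like peptides, many of which act in flowers, 2 were higher, 13 lower and 65 not called. Their median of -0.32 was close to the -0.26 of the dimmest class of all genes. LCR68 stood apart with 9.97, 10.28 and 10.05 on the root arrays and 8.32, 8.24 and 8.26 on the shoot arrays (1.83 ± 0.10), and LCR44 differed by -1.06 ± 0.16. LCR22 (0.40) and LCR56 (-1.03) were not called without DMSO root replicate 3 (adjusted p = 0.0842 and 0.0787), nor without several other single arrays. Without replicate 3 the counts of the family were 1 higher and 7 lower.

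Lipid and surface families held some of the largest differences in both directions. Of 87 GDSL lipases and esterases, a secreted family that includes cutin synthases, 17 were higher and 39 lower, 29 of the latter at least 2-fold. AT5G33370 read 3.03, 3.70 and 4.56 on the root arrays and 10.34, 10.43 and 10.36 on the shoot arrays (-6.61 ± 0.29, and -7.01 without DMSO root replicate 3). AT4G28780 differed by -5.71 ± 0.14. On the root side AT1G74460 read 9.51, 9.91 and 9.78 on the root arrays and 3.17, 3.67 and 4.09 on the shoot arrays (6.09 ± 0.21) and AT5G37690 differed by 5.95 ± 0.19. The family thus spanned over 12 log2 units between its most root-sided and most shoot-sided member.

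Lipid transfer proteins, small secreted carriers of lipids in the wall and cuticle, had 24 higher (31.2%) and 20 lower (26.0%) of 77, near the 26.6% and 25.8% of all genes. Their median was -0.10, and 0.06 after quantile normalization, so its sign depended on the scaling. AT5G13900 read 9.78, 9.70 and 9.85 on the root arrays and 2.49, 3.09 and 2.82 on the shoot arrays (6.98 ± 0.15) and AT4G12500 8.46, 8.80 and 8.41 on the root arrays and 2.28, 2.05 and 2.12 on the shoot arrays (6.41 ± 0.28). On the shoot side were AT5G48490, which read 3.78, 4.19 and 4.97 on the root arrays and 10.74, 10.45 and 10.74 on the shoot arrays (-6.33 ± 0.24, and -6.65 without replicate 3), and AT4G22485 and AT4G22520 (-5.72 ± 0.55), whose root values were uneven. The fatty acid desaturases of the ADS type showed both extremes in 4 genes. AT1G06100 read 3.14, 3.01 and 4.98 on the root arrays and 10.23, 10.26 and 10.29 on the shoot arrays (-6.55 ± 0.40, and -7.19 without replicate 3) and AT1G06360 2.66, 2.91 and 3.47 on the root arrays and 9.47, 9.50 and 9.65 on the shoot arrays (-6.52 ± 0.19). AT1G06120 read 8.72, 7.87 and 8.16 on the root arrays and 3.59, 3.81 and 3.72 on the shoot arrays (4.54 ± 0.23). Of 6 wax and cutin genes, 4 were lower and 1 higher. FACT, which makes the caffeate esters of root waxes, read 8.11, 8.34 and 8.19 on the root arrays and 4.08, 4.76 and 5.44 on the shoot arrays (3.45 ± 0.27). AT4G13840, a gene of the CER2-like group that elongates leaf wax precursors, read 4.26, 4.62 and 4.16 on the root arrays and 7.56, 7.84 and 7.49 on the shoot arrays (-3.28 ± 0.16), and the wax ester synthase gene WSD1 differed by -2.03 ± 0.33.

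Enzyme families of specialised metabolism and detoxification differed from each other in their counts. Of 55 UDP-glycosyltransferases, which attach sugars to small molecules, 27 were higher and 15 lower (median 0.41). UGT76B1, which glucosylates isoleucic and salicylic acid, read 9.53, 9.53 and 9.24 on the root arrays and 3.30, 2.62 and 3.44 on the shoot arrays (6.31 ± 0.21), and UGT73B4 differed by 4.84 ± 0.24. UGT73C6, a flavonol glycosyltransferase, read 3.43, 3.67 and 3.04 on the root arrays and 6.47, 6.27 and 6.44 on the shoot arrays (-3.01 ± 0.15), and UGT76E11 differed by -2.41 ± 0.11. Of 15 glutathione transferases, 7 were higher and 3 lower, each at least 2-fold. GSTU22 read 8.61, 8.82 and 8.74 on the root arrays and 3.27, 3.32 and 3.19 on the shoot arrays (5.46 ± 0.23), GSTU25 differed by 4.92 ± 0.27, GSTU18 by -2.10 ± 0.11 and GSTL3 by -1.47 ± 0.095. The CYP71B cytochromes P450 had 4 higher and 5 lower of 20, near the shares over all genes, with CYP71B23 at 2.46 ± 0.18, CYP71B37 at 1.24 ± 0.30, CYP71B35 at -2.35 ± 0.23 and CYP71B5 at -1.67 ± 0.15. CYP71B37 was dim, and with 16 added to every linear signal it differed by 0.44. Of 32 serine carboxypeptidase-like genes, 11 were higher (34.4%) and 8 lower (25.0%), beside 26.6% and 25.8% of all genes. Their median of -0.15 became 0.01 after quantile normalization. The gene scpl28 read 9.04, 8.85 and 9.17 on the root arrays and 3.67, 4.04 and 3.79 on the shoot arrays (5.19 ± 0.23), SCPL15 differed by 4.17 ± 0.22, scpl42 by -2.04 ± 0.10 and scpl25 by -1.76 ± 0.092.

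Sugar carriers differed by member. SWEET11, which exports sucrose from leaf cells towards the phloem, read 6.22, 5.21 and 6.63 on the root arrays and 10.78, 10.88 and 10.81 on the shoot arrays (-4.81 ± 0.30, and -5.11 without DMSO root replicate 3). SWEET1, a glucose carrier, read 3.74, 4.04 and 3.98 on the root arrays and 6.94, 7.01 and 7.18 on the shoot arrays (-3.12 ± 0.13). SWEET16 and SWEET17, carriers of the vacuole membrane, were the 2 of 14 measured SWEET genes that were higher in roots, at 1.31 ± 0.12 and 0.81 ± 0.12. A further 3 were lower. Of 15 ERD6-like sugar transporters, 7 were higher and 5 lower. AT3G05150 differed by 3.13 ± 0.13 and AT5G18840 by 3.05 ± 0.25, while SFP2 read 4.72, 4.48 and 4.80 on the root arrays and 8.08, 8.17 and 8.17 on the shoot arrays (-3.47 ± 0.12) and AT3G05160 differed by -1.72 ± 0.14.

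Of 9 cation/proton exchangers of the CHX type, 2 were higher and 2 lower (22.2% each), near the 26.6% and 25.8% of all genes. Their median of -0.12 became 0.01 after quantile normalization. CHX16 read 8.19, 8.18 and 8.10 on the root arrays and 5.21, 4.80 and 4.91 on the shoot arrays (3.18 ± 0.14) and CHX21 differed by 0.58 ± 0.14. CHX20, which acts in guard cells, read 3.71, 3.97 and 3.87 on the root arrays and 5.70, 5.58 and 5.63 on the shoot arrays (-1.78 ± 0.17), and CHX23 differed by -0.59 ± 0.16. CHX23 was dim, and with 16 added to every linear signal it differed by -0.18. Among 10 glutamate receptor-like channels, GLR2.2 differed by 2.25 ± 0.32, ATGLR1.2 by 1.69 ± 0.18, GLR2.7 by -1.39 ± 0.22 and GLR1.4 by -0.92 ± 0.14. In all 4 of them were higher and 2 lower.

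Of 18 genes for auxin synthesis, conjugation and Aux/IAA repressors, 5 were higher (27.8%) and 6 lower (33.3%), near the 26.6% and 25.8% of all genes. The auxin-conjugating enzymes GH3.1 and GH3.17 were on the root side, GH3.17 with 8.65, 8.70 and 8.80 on the root arrays and 7.21, 6.36 and 6.70 on the shoot arrays (1.96 ± 0.21) and GH3.1 at 2.54 ± 0.17. Their relative GH3.9 read 4.76, 4.74 and 4.58 on the root arrays and 6.79, 6.33 and 6.87 on the shoot arrays (-1.97 ± 0.18). YUC4, a flavin monooxygenase of auxin synthesis, read 2.54, 2.95 and 2.81 on the root arrays and 4.21, 4.72 and 4.17 on the shoot arrays (-1.60 ± 0.23). Of 5 SAUR genes, AT1G43040 was higher (0.64 ± 0.22) and AT3G53250 lower (-1.68 ± 0.14). With 16 added to every linear signal the differences were 0.23 and -0.49. The call of AT1G43040 was lost without DMSO root replicate 1, DMSO shoot replicate 1 or DMSO shoot replicate 2.

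Peptide hormones of the CLE family, to which the inducible gene belongs, were measured through 17 members. Of these, 2 were higher in roots and 6 lower. CLE14 read 6.71, 6.98 and 7.16 on the root arrays and 4.51, 3.91 and 3.83 on the shoot arrays (2.87 ± 0.20), and CLE1 5.36, 5.53 and 5.16 on the root arrays and 3.62, 4.19 and 3.90 on the shoot arrays (1.45 ± 0.16). CLE42, a relative of the peptides that restrain xylem differentiation, read 6.68, 6.60 and 6.79 on the root arrays and 8.36, 8.41 and 8.56 on the shoot arrays (-1.75 ± 0.14), and CLE43 differed by -0.92 ± 0.16. CLE2 itself was not among the genes paired with a probe set. Of 18 genes for RALF-like peptides, which raise the pH outside cells, 4 were higher (22.2%) and 5 lower (27.8%). This is near the 26.6% and 25.8% of all genes. Without DMSO root replicate 3, 4 RALF-like genes were higher and 3 lower. RALFL32 read 6.60, 6.76 and 6.79 on the root arrays and 4.63, 4.75 and 4.48 on the shoot arrays (2.10 ± 0.10) and RALFL34 7.26, 7.49 and 7.19 on the root arrays and 8.58, 8.96 and 9.08 on the shoot arrays (-1.56 ± 0.14). RALFL27 differed by 1.28 ± 0.20 and RALFL20 by -0.86 ± 0.17. RALFL20 was dim in both organs, and with 16 added to every linear signal it differed by -0.20. On the estradiol arrays it differed by 0.18 (limma adjusted p = 0.391).

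Receptor kinases with a malectin-like domain and leucine-rich repeats were mostly on the root side when called: of 37, 19 were higher, 16 at least 2-fold, and 5 lower, with a median of 0.56. Without DMSO root replicate 3, 18 higher and 3 lower were called. AT1G51830 read 9.52, 9.74 and 9.63 on the root arrays and 4.10, 3.92 and 3.73 on the shoot arrays (5.71 ± 0.21) and AT1G51860 differed by 5.57 ± 0.25. AT1G51805 read 6.79, 7.08 and 6.97 on the root arrays and 9.42, 9.24 and 9.43 on the shoot arrays (-2.42 ± 0.16), and AT3G46370 differed by -2.06 ± 0.17. The related kinases of the FERONIA group, sensors of wall state and of RALF peptides, went both ways. Of 14, 5 were higher and 2 lower (4 higher and 1 lower without DMSO root replicate 3), the median was within 0.01 of 0 (0.06 after quantile normalization and 0.02 after subtraction of array medians), and 1 and 1 reached 2-fold. These were AT5G59700 (1.01 ± 0.20) and AT5G38990 (-2.13 ± 0.20). Both were dim, and with 16 added to every linear signal they differed by 0.37 and -0.64, below 2-fold. AT2G39360 differed by 0.99 ± 0.15. ANX1, known from pollen tubes, was called at the threshold (-0.37 ± 0.14, adjusted p = 0.0499) and was not called without DMSO root replicate 3 (adjusted p = 0.0899), nor under most other settings tried.

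The regulators of leaves and stomata were mostly lower in roots. Of 27 genes for leaf polarity and outgrowth, organ boundaries and the stomatal lineage, 18 were lower in roots, 16 of them at least 2-fold, and 3 higher, with a median of -1.46. Without DMSO root replicate 3, 20 were lower. YAB3, a factor of the lower leaf side, read 3.86, 3.73 and 4.36 on the root arrays and 9.45, 9.50 and 9.50 on the shoot arrays (-5.51 ± 0.18). MUTE and, outside the list, FMA, which follow SPCH in the stomatal lineage, read 2.47, 2.08 and 1.80 and 3.54, 3.48 and 3.48 in roots and 5.12, 5.50 and 5.33 and 7.43, 7.76 and 7.96 in shoots (-3.20 ± 0.19 and -4.22 ± 0.16). Their root values were low on every array, replicate 3 included. With 16 added to every linear signal the differences were -1.45 for MUTE and -3.05 for FMA. Further members chosen after their values were seen were the peptide gene STOMAGEN (-4.14), YAB2 (-4.69), YAB5 (-3.88) and the leaf outgrowth factor JAG (-3.93). Exceptions on the root side were LSH9, which read 6.26, 5.88 and 6.32 on the root arrays and 1.66, 2.11 and 1.87 on the shoot arrays (4.27 ± 0.17), LSH5 (1.93 ± 0.16), both of a family named for light-dependent short hypocotyls, and the shoot branching factor LAS (0.79), picked after its value was seen.

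Of 20 regulators of roots and lateral roots, 13 were higher in roots and 3 lower, with a median of 0.72. Like the list of leaf and stomatal regulators, this list was chosen with earlier results of these data known. The counts of both are descriptions only. LBD29, which acts in lateral root initiation, read 6.33, 5.97 and 6.46 on the root arrays and 2.55, 3.37 and 3.05 on the shoot arrays (3.27 ± 0.20). Its relative LBD16, picked after its values were seen, read 6.62, 6.54 and 6.87 on the root arrays and 3.47, 3.64 and 3.91 on the shoot arrays, with no overlap, and was called (adjusted p = 9.52e-09). JKD, a zinc finger factor of ground tissue patterning, and GSO1, a receptor of the endodermal barrier, likewise picked afterwards, differed by 2.35 ± 0.11 and 2.26 ± 0.15. The lower members were EXO, a brassinosteroid-response gene of leaf growth (-2.19 ± 0.38), the receptor-like kinase gene CR4 (-1.11 ± 0.16) and SKU5 (-0.50), picked likewise. The called members on the root side ranged from 0.59 for GEM to 3.88 for AGL21.

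**Figure D5:**
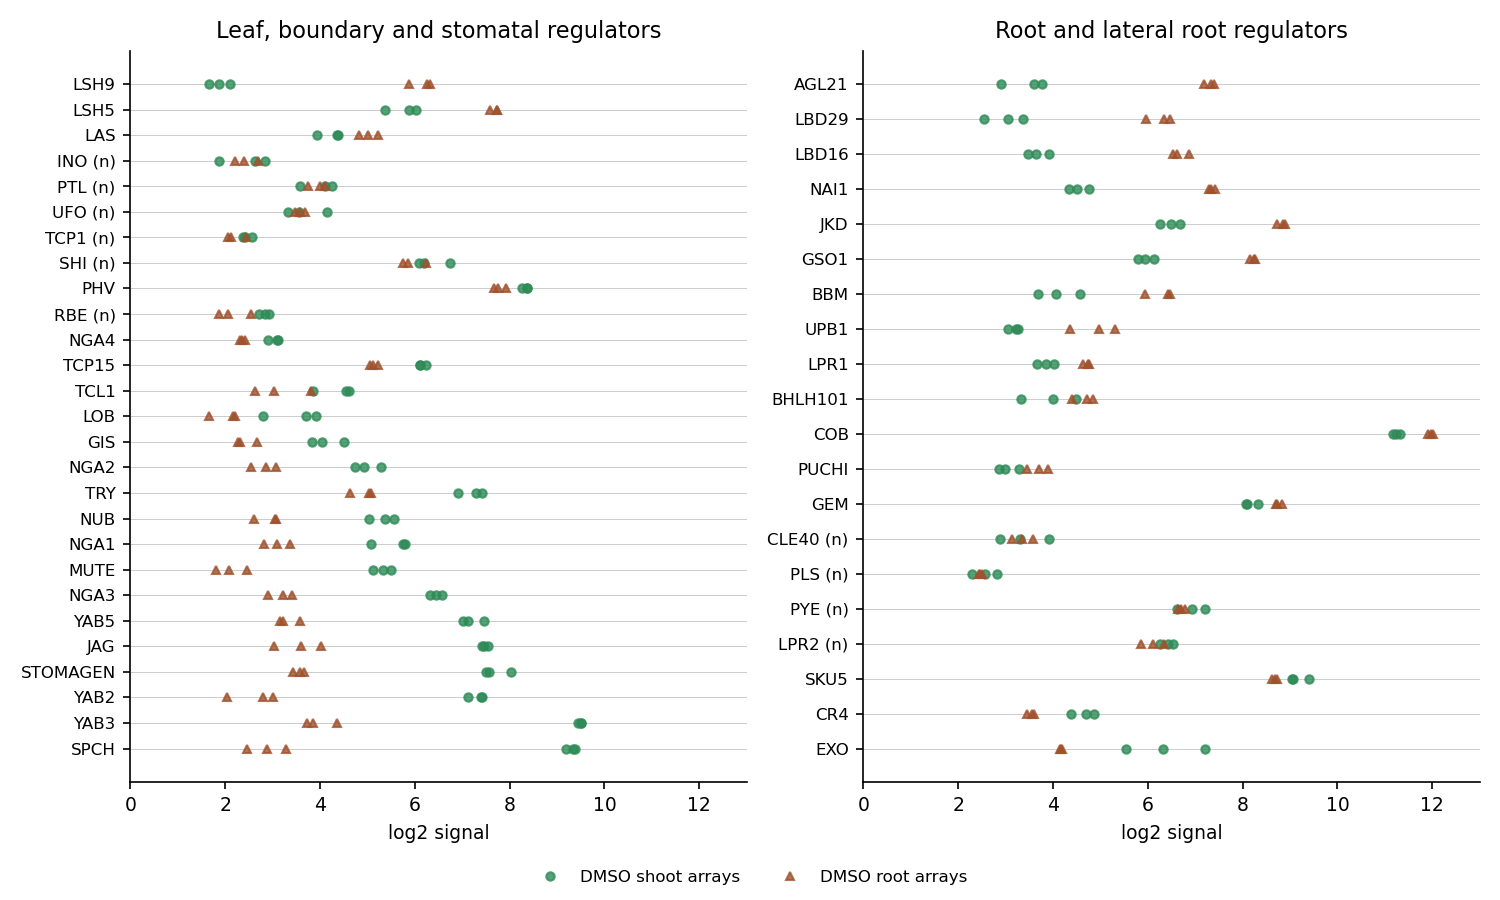
Log2 signal (horizontal axis) of 27 leaf, boundary and stomatal regulators (left) and 20 root and lateral root regulators (right) on each of the 3 DMSO root arrays (brown triangles) and 3 DMSO shoot arrays (green circles), with genes ordered by their difference and (n) after genes that were not called. SPCH and YAB3 have the widest gaps on the left, with differences of -6.42 and -5.51, and AGL21 on the right, with 3.88.

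Transcription factor families had members on both sides. Of 65 MADS-box genes, best known from flowers, 5 were higher and 19 lower, and 41 were not called. AGL21, which promotes lateral roots, read 7.19, 7.39 and 7.32 on the root arrays and 3.77, 3.59 and 2.91 on the shoot arrays (3.88 ± 0.27). AGL42, a marker of the quiescent centre in the root tip, read 5.87, 5.75 and 6.08 on the root arrays and 2.91, 2.95 and 2.81 on the shoot arrays (3.01 ± 0.10). AGL65 and AGL87 differed by -1.84 ± 0.16 and -1.73 ± 0.18. The median of the family, -0.31, was again close to that of dim genes. Of 20 bZIP genes, 8 were higher and 2 lower. The related zinc-deficiency factors bZIP19 and bZIP23 were called in opposite directions under DMSO. bZIP19 read 9.45, 9.60 and 9.47 on the root arrays and 8.28, 8.41 and 8.19 on the shoot arrays (1.21 ± 0.10). bZIP23 read 5.73, 5.43 and 5.78 on the root arrays and 6.14, 6.14 and 6.03 on the shoot arrays (-0.45 ± 0.14, adjusted p = 0.0189). The call of bZIP23 was lost without DMSO root replicate 2 or DMSO shoot replicate 2. On the estradiol arrays bZIP23 differed by -0.03 (limma adjusted p = 0.852) and bZIP19 by 0.93. bZIP44 differed by 2.10 ± 0.21 and BZIP34 by -2.56 ± 0.14.

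Of 7 WRKY genes, 4 were higher and 1 lower. WRKY6 and WRKY42, regulators of phosphate transport, read 9.69, 9.74 and 9.62 and 7.99, 7.37 and 7.74 in roots and 7.41, 7.34 and 7.29 and 4.78, 5.17 and 4.82 in shoots (2.34 ± 0.093 and 2.78 ± 0.18). WRKY20, the lower one, differed by -0.27 ± 0.083, and its call was lost when the fit held only the 6 DMSO arrays, or when replicate 2 of either DMSO group was left out. Of 17 IQ-domain proteins, calmodulin-binding scaffolds on microtubules, 6 were higher (35.3%) and 5 lower (29.4%), beside 26.6% and 25.8% of all genes. The gene iqd21 read 3.44, 4.22 and 4.02 on the root arrays and 8.63, 8.63 and 8.70 on the shoot arrays (-4.76 ± 0.16) and IQD24 differed by -2.96 ± 0.11, while IQD16 and iqd15 differed by 2.21 ± 0.17 and 1.84 ± 0.17.

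CC-type glutaredoxins, plant-specific redox proteins that bind TGA transcription factors, were mostly on the shoot side. Of 20, 13 were lower in roots, 10 of them at least 2-fold, and 1 higher, with a median of -1.02. AT5G18600 read 2.86, 2.54 and 2.91 on the root arrays and 7.50, 7.40 and 7.54 on the shoot arrays (-4.71 ± 0.19). AT4G15700 read 3.30, 2.75 and 3.47 on the root arrays and 6.90, 6.77 and 6.47 on the shoot arrays (-3.55 ± 0.28). ROXY2, which acts in anthers, was called higher (0.62 ± 0.20, adjusted p = 0.0239) and lost the call without DMSO root replicate 3 (adjusted p = 0.0928), which left no member higher, and without any of 3 other single arrays.

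Cellular housekeeping groups differed by small amounts. Of 27 ubiquitin-conjugating enzymes and ubiquitin proteases, 14 were higher and 5 lower (median 0.26; 12 higher and 3 lower without DMSO root replicate 3), with UBC29 at 1.32 ± 0.17, UBC30 at 1.25 ± 0.11, UBC19 at -0.49 ± 0.092 and UBC31 at -0.44 ± 0.14. Of 20 exocyst and ESCRT genes, which serve secretion and membrane sorting, 10 were higher and 2 lower (median 0.23; 8 higher and 1 lower without DMSO root replicate 3). VPS60.1 differed by 0.84 ± 0.20, SEC5B by 0.65 ± 0.10 and VPS2.2 by -0.97 ± 0.11. VPS24.2 (-0.58 ± 0.22) was not called without DMSO root replicate 3 (adjusted p = 0.0775), nor without several other single arrays. Of 17 RNA polymerase subunits, none was higher and 5 were lower (median -0.15). NRPE7 read 5.26, 5.37 and 5.71 on the root arrays and 6.47, 6.16 and 6.43 on the shoot arrays (-0.91 ± 0.14), and NRPB9A (-0.63 ± 0.19) was not called without DMSO root replicate 3 (adjusted p = 0.0552), nor without any of 3 other single arrays. Without replicate 3, 3 subunits were lower. Among the ribosomal protein genes described with the organelles, AT2G40010 differed by -0.77 ± 0.13, AT2G39590 by -0.73 ± 0.15, AT5G39850 by 0.57 ± 0.10 and AT5G59240 by 0.68 ± 0.23.

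The same organ comparison can be made on the other 6 arrays, whose seedlings had estradiol on their roots, and which share no array with the DMSO comparison. There 8685 genes were called as well (52.5%), 4382 of them higher in roots and 4303 lower. Of the 3610 genes called with at least 2-fold under DMSO, 3551 (98.4%) were also called in the same direction under estradiol. Of all 8685 genes called under DMSO, 7343 were. Both comparisons used the spread of the same fit. Across genes, which are not independent replicates, the differences of both comparisons correlated at 0.974. The extensin AT3G28550 differed by 8.91 there, BGLU22 by 6.70, AT3G16660 by -8.61 and SPCH by -6.36. The direct test of whether the organ difference changed with the treatment called 0 genes by limma, where the lowest adjusted p was 0.451. At an unadjusted limma p under 0.05 there were 895 of 16550, near the number that this threshold passes when no gene changes. The class III peroxidases had 41 higher and 7 lower under estradiol, the leaf and stomatal regulators 3 and 19, and the mitochondrial genes 17 and 0.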

How the data were processed

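Total RNA from 12 samples in 4 groups of 3 was hybridised to single-colour Affymetrix arrays. The authors deposited log2 values, 1 per probe set and array (0.339 to 14.1), and per the submitters' processing notes the software was Affymetrix Expression Console 1.3. How probe sets were summarized, background-corrected and normalized is not given in the sources used here. These steps can set the floor and compress bright signals. The number of arrays, 3 in each group, limits the precision.

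Of 38408 probe sets, 16722 were paired with 1 gene by GEO's platform annotation, 759 with several and 20927 with none. Where several served 1 gene, the one with the highest mean was kept. RefSeq (TAIR10.1) supplied symbols for 16411 of the 16550 genes. RefSeq gene order served only to find neighbouring genes. No sequences were used here.

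limma 3.58.1 in R 4.3.3 (lmFit, eBayes) was fitted to all 12 arrays with 1 mean per group and 8 residual degrees of freedom. There was no filter on dim genes. In simulated data of the 16550 genes for DMSO root against DMSO shoot, 50 genes had a difference at each size and all others had none. There limma recovered 46% of changes of 0.6 log2 units, 66% of 1, 94% of 1.5 and 98% of 2, with 12 false calls. In the real data 52.5% of genes were called, a far larger share, so these rates do not carry over to the real comparison. Groups, lists and named genes were chosen with earlier results of these data known. The planned lists were patterns over gene descriptions, which the tables do not hold: of 47 patterns, 12 matched no gene and 27 under 5. They were replaced by 52 lists of symbol stems and known loci, with 1371 genes. Named genes were the 15 largest called differences in each direction without overlap, up to 2 called members per list and direction, and the markers. Others are said to be picked after their values were seen. Alternatives covered other fits, blocks, scalings, filters, thresholds and each array left out.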

Additional observations from a re-analysis of the deposited data

How the results depend on the processing

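The calls moved little with most settings. The count of 8685 called genes lay between 7839 and 8739 when any 1 of the 12 arrays was left out, and that of 3610 genes at 2-fold between 3608 and 3672. The estradiol organ comparison lay between 7743 and 8806. The 2-fold count fell to 2283 (1116 higher, 1167 lower) among genes above the median level, where fewer genes were tested. With 16 added to every linear signal, which shrinks differences that rest on dim values, the 2-fold count fell to 2602 (1389 higher, 1213 lower). Under that setting 8543 genes were called. With all probe sets, named or not, 17967 were called (8674 higher, 9293 lower) and 8511 at 2-fold (3786 and 4725). A limma test against a 2-fold threshold called 2441 (1315 and 1126). Quantile normalization moved the median difference from -0.09 to 0.01, a shift of 0.10 in favour of roots, and gave 4678 higher and 3577 lower. Under it the medians of the lipid transfer protein, CHX, serine carboxypeptidase-like and FERONIA groups changed sign. With a replicate block, 8854 genes were called, 3611 at 2-fold. Between roots and shoots, deviations of arrays with the same number had correlations of 0.098, 0.055 and 0.050, so the numbers were not taken to pair samples, although each array correlated best with its own number. Of 203 named genes, 15 had a call that changed under some setting (81 of 4409 comparisons weaker, 1 stronger, none reversed). CLV3, not called, was called without DMSO shoot replicate 1. The others were ANX1, AT1G43040, AT2G43620, AT5G59240, CHX23, GH9B10, LCR22, LCR56, NRPB9A, ROXY2, UBC31, VPS24.2, WRKY20 and bZIP23. Of 1142 comparisons of list medians, 67, in 38 of the 52 lists, moved by more than the spread between arrays.

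The arrays name 43.5% of their probe sets, so most families are incomplete. No detection calls were used here.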

Other observations

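Some family members that lie side by side on a chromosome had opposite organ preference. In the RefSeq gene order, 269 pairs of neighbouring list members had at most 3 genes between them. In 48 pairs both genes were called at least 2-fold in the same direction, and in 15 in opposite directions. Over all genes, 11.7% were at least 2-fold higher and 10.1% at least 2-fold lower. A count over neighbouring pairs of all genes was not made. The widest opposite pair was that of the desaturase genes AT1G06100 (-6.55) and AT1G06120 (4.54). The adjacent latex protein-like genes AT1G23120 and AT1G23130 differed by 3.51 and -3.69. Among the peroxidases, AT5G64110 (-1.47) lay between AT5G64100 (5.06) and AT5G64120 (5.20). The root lectins AT1G52050, AT1G52060 and AT1G52070 were flanked by the shoot-sided AT1G52000 (-2.54) and AT1G52100 (-3.09). The sugar transporter AT3G05160 (-1.72) lay between AT3G05155 (2.17) and AT3G05165 (1.53). The adjacent chitinase genes ChiC and AT4G19820 differed by 2.33 and -2.01. These pairs were picked after their values were seen, and the number was not tested.

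Pairs that moved together included the lipid transfer protein genes AT4G22485 (-5.98) and AT4G22490 (-5.15), the peroxidase genes Prx37 (6.59) and AT4G08780 (6.42), the kinase genes AT1G51850 (5.17) and AT1G51860 (5.57), and the dirigent genes AT4G11190 (4.49) and AT4G11210 (4.31). The members of each pair are adjacent genes of one family and may share signal on the array, which was not tested. These pairs too were picked after their values were seen.

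Of the genes called in both treatments, 5 had opposite signs under DMSO and estradiol. AT1G31163 was lower in roots under DMSO (-0.95) and higher under estradiol (0.46), and AT2G37870 went from -0.48 to 0.68. AT1G02470, AT3G60540 and AT5G45910 were higher under DMSO (0.31, 0.42 and 0.31) and lower under estradiol (-0.40, -0.53 and -0.36). The test of the change itself called none of them.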
